A study of Mus musculus with 4 samples.

Results

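The miR-106b/25 cluster comprises mmu-miR-106b, mmu-miR-93 and mmu-miR-25 (here miR-106b, miR-93 and miR-25), which are cut from a single primary transcript inside an intron of Mcm7. Its 3 members were found by name among the 566 mouse miRNA probes of a nanoString nCounter panel, and all 3 had a probe of their own. The panel was run once on each of 4 pools of tdTomato-positive cells sorted from mouse retina. P2 RPC were retinal progenitor cells of postnatal day 2 from mice with Sox2-CreER, pooled from 8 retinas. P8 MG, P11 MG and adult MG were Müller glia from mice with Rlbp-CreER, pooled from 52, 32 and 40 retinas, and the title of the P11 library gives its age as P11/12. All mice carried a Cre-dependent tdTomato reporter, and tamoxifen at 75 mg/kg was injected into the abdomen on 2 consecutive days to start Cre activity. The first injection fell on postnatal day 0 for P2 RPC, day 6 for P8 MG and day 9 for P11 MG, and adult mice were older than 21 days. The tdTomato label is permanent and is inherited by daughter cells, and Sox2 is also known from Müller glia and some amacrine neurons. With a single library for every group, differences could not be set against replicate spread, and p-values are left out.

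MicroRNAs are short RNAs that guide Argonaute proteins to messenger RNAs, mostly through the seed near their 5′ end, and lower the output of those transcripts. Mcm7, the host gene, encodes a subunit of the replicative helicase, and in human cells E2F1 is known to drive the host gene and the cluster together. In human cells miR-106b and miR-93 repress the cell-cycle inhibitor CDKN1A, and miR-25 represses CDKN1C. In mice the cluster is known to promote the proliferation of adult neural progenitors. Müller glia span the retina as its main glial cells, arise last from the same progenitors and stop dividing during the postnatal weeks studied here. The series title names miR-25 among the regulators of their neurogenic potential.

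The mature sequences are shown because the cluster holds 2 different seeds, which set what each member can pair with. Seeds (bases 2 to 8) are in capitals, and the sequences are those of RefSeq on build GRCm38.p6.
miR-106b-5p: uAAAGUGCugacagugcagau
miR-93-5p: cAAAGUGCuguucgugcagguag
miR-25-3p: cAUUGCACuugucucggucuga
miR-106b and miR-93 share the seed AAAGUGC with miR-17, miR-106a, miR-20a and miR-20b, whereas miR-25 shares AUUGCAC with miR-92a, miR-92b, miR-32, miR-363 and miR-367. The panel gives no arm in its probe names, and the arms shown follow the miRBase identifier beside each probe. Probes named for the minor arms of these hairpins were not found by name. The hairpins lie on the minus strand at chr5:138165737-138165818 (Mir106b), chr5:138165523-138165610 (Mir93) and chr5:138165321-138165404 (Mir25), all inside the span of Mcm7. They are separated by 126 and 118 bases and together cover 498 bases.

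The paralogues with the closest sequences are shown next, since their probes are the likeliest to share signal with the cluster.
miR-17-5p: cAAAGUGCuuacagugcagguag
miR-106a-5p: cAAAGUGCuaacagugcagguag
miR-20a-5p: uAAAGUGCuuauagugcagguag
miR-20b-5p: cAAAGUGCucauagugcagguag
miR-92a-3p: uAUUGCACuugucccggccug
Counted from the 5′ end, miR-106b matched miR-17, miR-106a and miR-20a at 18 of 21 positions each, and miR-93 matched miR-20b at 20 of 23. miR-25 matched miR-92a at 18 of 21 positions and miR-106b at 5 of 21. The panel reads miR-17 with miR-106a, and miR-20a with miR-20b, through shared probes.

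The lanes held 470304 to 695390 counts on mouse miRNA probes, and 134 to 220 of the 566 probes stood above background. The background threshold of a lane, set 2 SD above the mean of its 8 negative controls, was 60.7 raw counts at P2 (RPC), 137 at P8, 106 at P11 and 71.7 in adult MG. A normalized count is a raw count scaled by the positive controls and by the 100 most abundant miRNA probes. Bracketed ranges are 95% intervals, which cover counting error only. Between lanes, log2 ratios varied with an SD of 0.08 to 0.18 among 5 spiked positive controls and of 0.07 to 0.26 among 3 ligation controls.

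miR-106b had 1689 raw counts at P2 (RPC), 561 at P8, 330 at P11 and 90 in adult MG. These correspond to 1527 normalized counts (1455 to 1601) for P2 RPC, 519 (477 to 564) at P8, 358 (320 to 398) at P11 and 103 (83.1 to 127) in adult MG. Its level thus fell from each library to the next, with no overlap of the counting intervals. The adult count lay 1.26 times the background threshold, against 27.8 times in P2 RPC, and the lower end of its raw counting interval, 72.4, was close to the threshold of 71.7.

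miR-93, the other AAAGUGC member, had 2106 raw counts at P2 (RPC), 818 at P8, 281 at P11 and 114 in adult MG. The normalized counts were 1904 (1823 to 1987), 757 (706 to 810), 305 (270 to 342) and 131 (108 to 157) in the same order of age. The intervals again did not overlap. In adult MG this probe stood at 1.59 times the background threshold, so both AAAGUGC members were near the lower limit of the assay there.

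miR-25, the AUUGCAC member, gave far stronger signals in every lane, with 20511 raw counts at P2 (RPC), 7005 at P8, 3250 at P11 and 2080 in adult MG. Among the 566 probes its count ranked 7 at P2 (RPC), 16 at P8, 19 at P11 and 26 in adult MG. miR-93 ranked 34, 47, 77 and 120 over the same libraries, and miR-106b ranked 36, 56, 69 and 142. Ranks need no scaling, and all 3 members lost places from each library to the next. Counts of different probes also depend on how well each probe captures its target, so the gap between miR-25 and its neighbours is not a ratio of molecules. In adult MG miR-25 was still 29.03 times the background threshold.

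**Figure D1:**
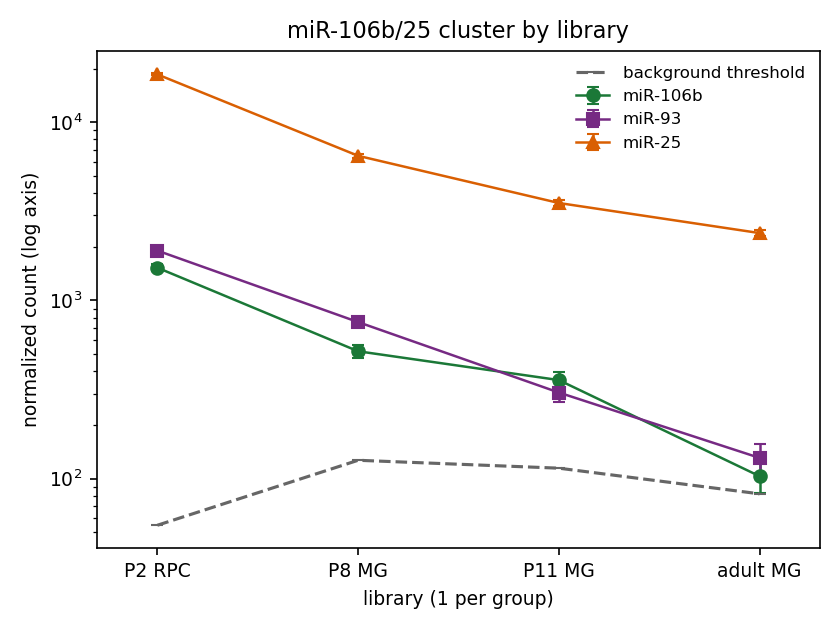
Normalized counts (log axis) of miR-106b, miR-93 and miR-25 in the 4 libraries, with bars for the 95% counting interval and a dashed line for the background threshold of each lane. All 3 members fall from each library to the next, and P2 RPC differ from the glia in cell type and Cre line as well as age. miR-106b (103) and miR-93 (131) come close to the threshold in adult MG while miR-25 (2388) does not.

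Members were called lower if they differed by 2-fold or more, had a counting interval that left out equality, and exceeded background where they were higher. In P8 MG against P2 RPC, all 3 members were called lower, where 9.17% of the 229 miRNA probes above background in either library were lower and 12.7% higher. The fold was 2.94 (2.67 to 3.24) for miR-106b, 2.52 (2.32 to 2.73) for miR-93 and 2.86 (2.78 to 2.94) for miR-25. The median log2 ratio of the 3 was -1.52, against 0.00 over the 125 probes measured in both libraries. The members differed among themselves by up to 0.23 on the log2 scale, less than the 0.43 spanned by the positive controls.

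In P11 MG against P2 RPC, all 3 were again called lower (10.3% of 232 probes were), by 4.27-fold for miR-106b, 6.25-fold for miR-93 and 5.26-fold for miR-25. In adult MG against P2 RPC, all 3 were called lower (16.5% of 242 probes were). miR-106b was 14.8-fold lower (11.9 to 18.5), miR-93 14.5-fold lower (12.0 to 17.7) and miR-25 7.76-fold lower (7.42 to 8.12). Ordered from the lowest ratio, miR-106b was number 9, miR-93 number 10 and miR-25 number 14 of the 242 probes. The median log2 ratio of the cluster was -3.86, against 0.18 over the 149 probes measured in both libraries. Other scalings put the miR-106b fold between 10.9 and 27.1 and the miR-25 fold between 5.73 and 14.2, the upper values on total miRNA counts. The counting intervals do not cover background. With the negative-control mean subtracted, adult MG and P2 RPC had 59.0 and 1494 normalized counts for miR-106b, and 86.5 and 1871 for miR-93. Both folds were then larger, while that of miR-25 changed little (2344 and 18507 counts). In adult MG against P8 MG or P11 MG, the folds of miR-106b and miR-93 were larger with that subtraction too. All 3 members kept their call against P2 RPC at all 3 glial ages under each of the 8 scalings.

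**Figure D2:**
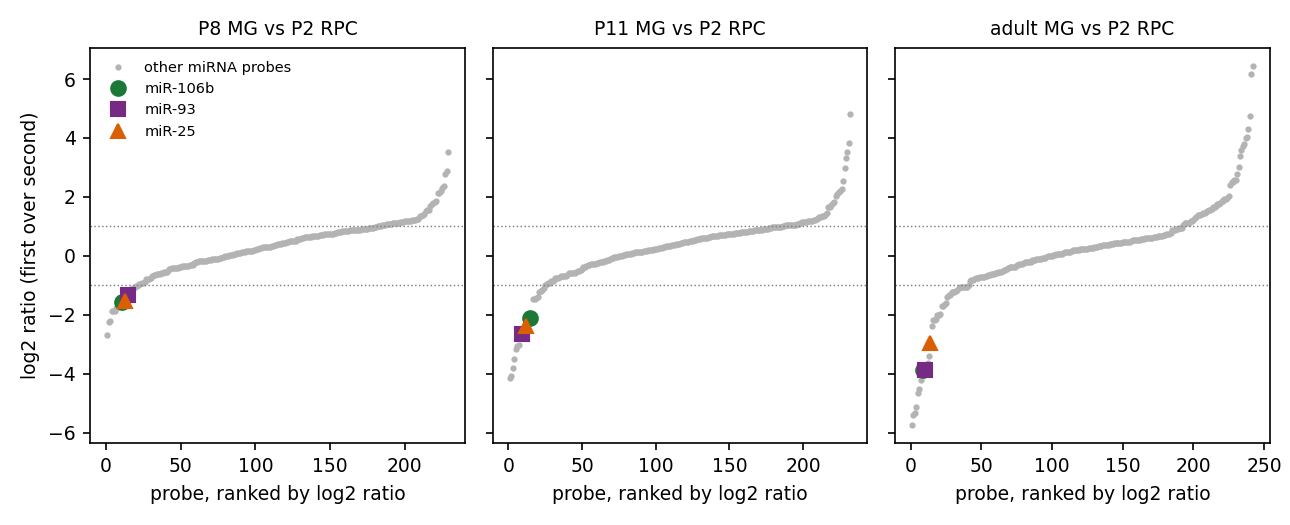
Log2 ratio to P2 RPC of each miRNA probe above background in either library, ranked from lowest to highest, for P8 MG, P11 MG and adult MG, with dotted lines at a 2-fold difference. All 3 cluster members lie in the low tail in each panel, and in adult MG miR-25 (-2.96) sits above miR-106b (-3.88) and miR-93 (-3.86).

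Within the glia the members parted. In P11 MG against P8 MG, 1 of 3 was called lower and 0 higher (6.37% of 157 probes were lower and 2.55% higher): miR-93, by 2.48-fold (2.17 to 2.86). miR-25 had a log2 ratio of -0.88 and miR-106b of -0.54 in that step. In adult MG against P11 MG, 2 of 3 were called lower and 0 higher (12.3% of 179 probes were lower and 12.8% higher), miR-106b by 3.46-fold (2.73 to 4.42) and miR-93 by 2.33-fold (1.86 to 2.92). The miR-93 call held under 5 of 8 scalings, with folds of 1.66 to 3.54. For miR-25 the log2 ratio was -0.56 in adult MG against P11 MG (-0.64 to -0.48). Under the other scalings that ratio ran from -1.17 to -0.07, so its sign held under all 8 scalings while its size depended on the choice. In adult MG against P8 MG, all 3 were called lower and 0 higher (17.2% of 180 probes were lower and 15% higher), miR-93 by 5.78-fold, miR-106b by 5.02-fold and miR-25 by 2.71-fold. The miR-25 call held under 7 of 8 scalings and was lost with housekeeping mRNAs as the scale (1.79-fold, log2 ratio -0.84), and in the authors' deposited table the log2 ratio was -0.99.

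The ratio of 2 members within a lane is free of any scaling, which makes it the most direct view of how the cluster held together. miR-25 over miR-106b was 12.1 at P2 (RPC), 12.5 at P8, 9.85 at P11 and 23.1 in adult MG. In adult MG the ratio was 1.90 times that of P2 RPC (1.53 to 2.39) and 2.35 times that of P11 MG (1.84 to 3.02). miR-25 over miR-93 was 9.74 at P2 (RPC), 8.56 at P8, 11.6 at P11 and 18.2 in adult MG. Here adult MG had 1.87 times the ratio of P2 RPC (1.54 to 2.29). Relative to both neighbours, miR-25 was thus retained in adult MG, by 0.93 and 0.91 on the log2 scale against P2 RPC. The ligation controls spanned 0.49 and the positive controls 0.29 between the same lanes.

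The AAAGUGC pair parted most at P11. miR-93 over miR-106b was 1.247 at P2 (RPC), 1.46 at P8, 0.852 at P11 and 1.27 in adult MG. In P8 MG against P2 RPC the log2 change was 0.23 (0.04 to 0.41), within the span of the positive controls. The change in P11 MG against P8 MG was -0.78 on the log2 scale (-1.06 to -0.49), against a span of 0.27 among the positive controls and 0.19 among the ligation controls. In adult MG against P2 RPC the change was 0.02 (-0.40 to 0.45).

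Background makes up a larger part of weak counts than of strong ones, so the adult ratios also depend on how it is treated. With the mean of the negative controls subtracted from each count, miR-25 over miR-106b was 39.7 in adult MG and 12.4 in P2 RPC, and miR-25 over miR-93 was 27.1 in adult MG and 9.89 in P2 RPC. The relative retention of miR-25 was then 3.21 and 2.74 times, larger than on raw counts.

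**Figure D3:**
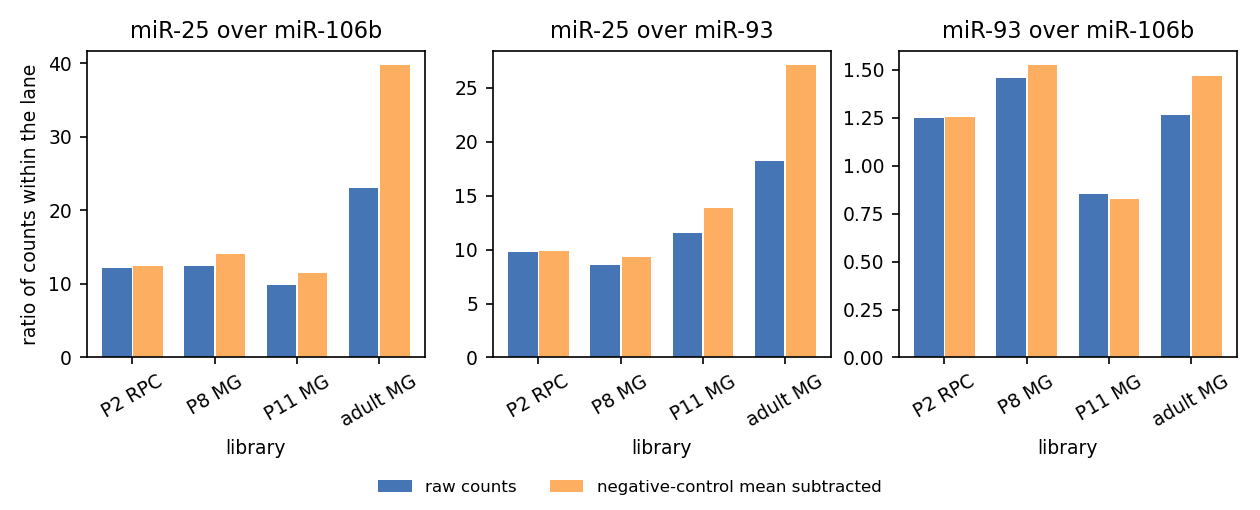
Ratio of counts between cluster members within each lane, on raw counts (blue) and after subtracting the mean of the negative controls (orange), with no scaling between lanes; axes start at 0 and differ between panels. Both ratios with miR-25 on top are highest in adult MG (23.1 and 18.2 on raw counts), and miR-93 over miR-106b is lowest in P11 MG (0.852).

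In the authors' deposited table, which holds background-subtracted and rescaled values, miR-106b stands at 1660 at P2 (RPC), 194 at P11 and 2 in adult MG. In the authors' deposited table miR-93 stands at 2088 at P2 (RPC), 499 at P8, 146 at P11 and 34 in adult MG, and miR-25 at 20992, 5269, 3081 and 2660. The values of 2 and 34 come from raw counts of 90 and 114 less a subtracted background of 88.2. An adult miR-106b fold taken from that table therefore rests on a remainder of 2 units, and all 3 members are lower there in adult MG than in P2 RPC.

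**Figure D4:**
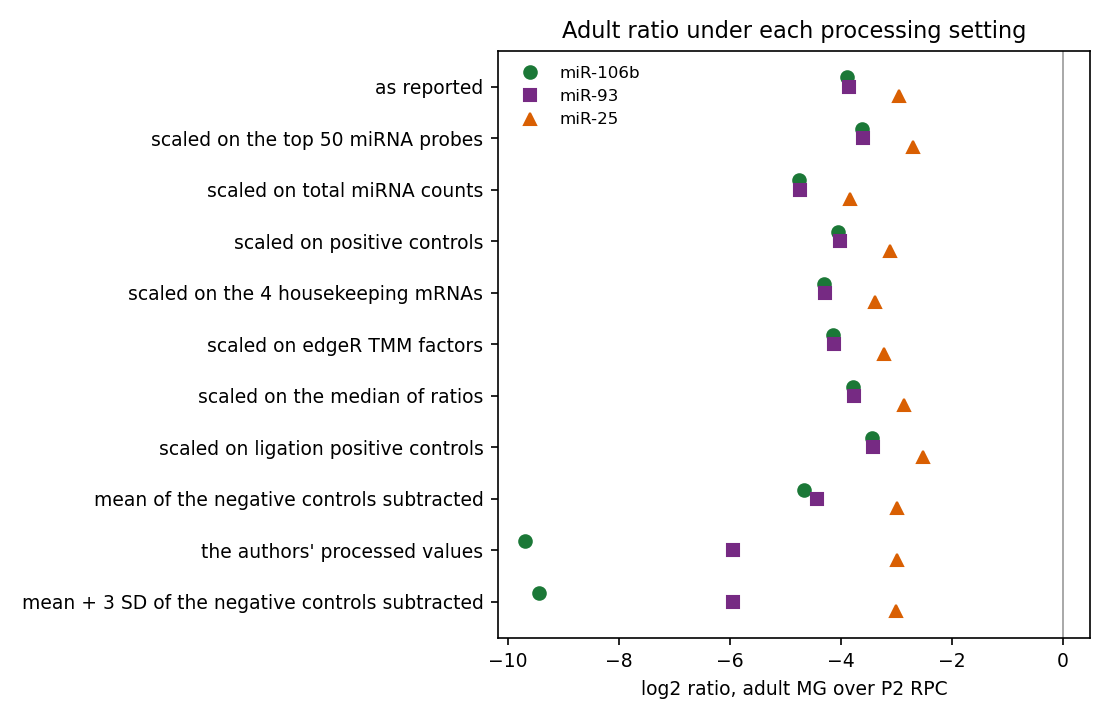
Log2 ratio of adult MG over P2 RPC for each member under each scaling and background treatment. miR-25 lies above the other members in each row, between -3.83 and -2.52, and miR-106b moves as far as -9.70 in the authors' processed values.

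As a share of all mouse miRNA counts, the cluster took 5.04% (4.98 to 5.10) in P2 RPC, 1.78% (1.75 to 1.82) at P8, 0.797% (0.772 to 0.823) at P11 and 0.328% (0.315 to 0.342) in adult MG. miR-25 made up 84.4%, 83.6%, 84.2% and 91.1% of the cluster's counts in these libraries. miR-204, an abundant miRNA of Müller glia and the pigment epithelium, took 5.39% of miRNA counts at P2 (RPC), 11.9% at P8, 20.5% at P11 and 35.6% in adult MG. With miR-204 left out of the total, the cluster's share was 5.33%, 2.02%, 1.002% and 0.510%.

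On raw counts the paralogous probes with the AAAGUGC seed lay lower than all 3 members in adult MG against P2 RPC, an order that held for miR-25 under each background treatment but not for miR-106b or miR-93. The probe of miR-20a and miR-20b had 21395 raw counts at P2 (RPC), 6251 at P8, 1991 at P11 and 316 in adult MG, and that of miR-17 and miR-106a had 13999, 4507, 1418 and 275. Of the 4 AAAGUGC probes, which include miR-106b and miR-93, 4 were called lower in adult MG against P2 RPC, where 16.5% of all 242 probes were, with a median log2 ratio of -4.60.

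Set against the joint probe of miR-20a and miR-20b, miR-25 was 2.78 higher on the log2 scale in adult MG than in P2 RPC (2.61 to 2.96). That value was 2.94 with the negative-control mean subtracted, 3.10 with the background threshold subtracted and 3.19 in the authors' deposited table. Against the probe of miR-17 and miR-106a, miR-25 was higher by 2.37 on raw counts (2.18 to 2.56), and by 2.56 to 2.86 under the same treatments.

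For the weaker members the gap depended on the background. On raw counts, miR-106b was 1.85 higher relative to the miR-20 probe in adult MG than in P2 RPC (1.49 to 2.20), and miR-93 was 1.87 higher (1.54 to 2.19). With the negative-control mean subtracted the differences were 1.26 for miR-106b and 1.49 for miR-93. With the threshold subtracted they were -0.02 for miR-106b and 0.85 for miR-93, and in the authors' deposited table -3.53 and 0.23. No direction is therefore given for miR-106b relative to its paralogues.

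Because these sequences are so alike, the counts of miR-106b and miR-93 are uncertain where another probe's target is abundant. On raw counts, miR-106b amounted to 7.89% of the miR-20 probe at P2 (RPC), 8.97% at P8, 16.6% at P11 and 28.5% in adult MG. For miR-93 the figures were 9.84%, 13.1%, 14.1% and 36.1%. With the background threshold subtracted, miR-106b was at 7.51% in adult MG and 7.63% in P2 RPC, and miR-93 at 17.3% in adult MG and 9.59% in P2 RPC. miR-25 likewise matched miR-92a at 18 of 21 positions. The part of shared signal in these probes, that of miR-25 included, was not tested.

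Of the 6 probes with the AUUGCAC seed, miR-25 alone was above background in all 4 libraries. miR-32 had 191 raw counts at P2 (RPC), 137 at P8, 90 at P11 and 63 in adult MG, and only the P2 RPC count was above background. miR-92a, a member of the miR-17/92 cluster, had 62, 28, 25 and 19 raw counts, and only the first was above the threshold of 60.7. Its transcript neighbour miR-19b had 3405, 912, 337 and 117. miR-92b was above background in adult MG alone, with 73 raw counts, and miR-363 and miR-367 in no library.

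By the root mean square difference of the 3 log2 ratios to P2 RPC, over 117 probes above background in all 4 libraries, the profile most like miR-106b was that of miR-15a (0.13). miR-15b (0.30), miR-130b (0.31), miR-93 (0.34) and miR-25 (0.56) followed. miR-15a was also nearest to miR-93 (0.32), ahead of miR-15b (0.34), miR-106b (0.34), miR-130b (0.36) and miR-19b (0.55). miR-25 had no such close match: miR-130b (0.45) and miR-124 (0.50), a neuronal miRNA, came before miR-15a (0.54), miR-93 (0.55) and miR-106b (0.56). The order of these neighbours changed when background was subtracted, which put miR-15b nearest to both AAAGUGC members and miR-124 nearest to miR-25.

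**Figure D5:**
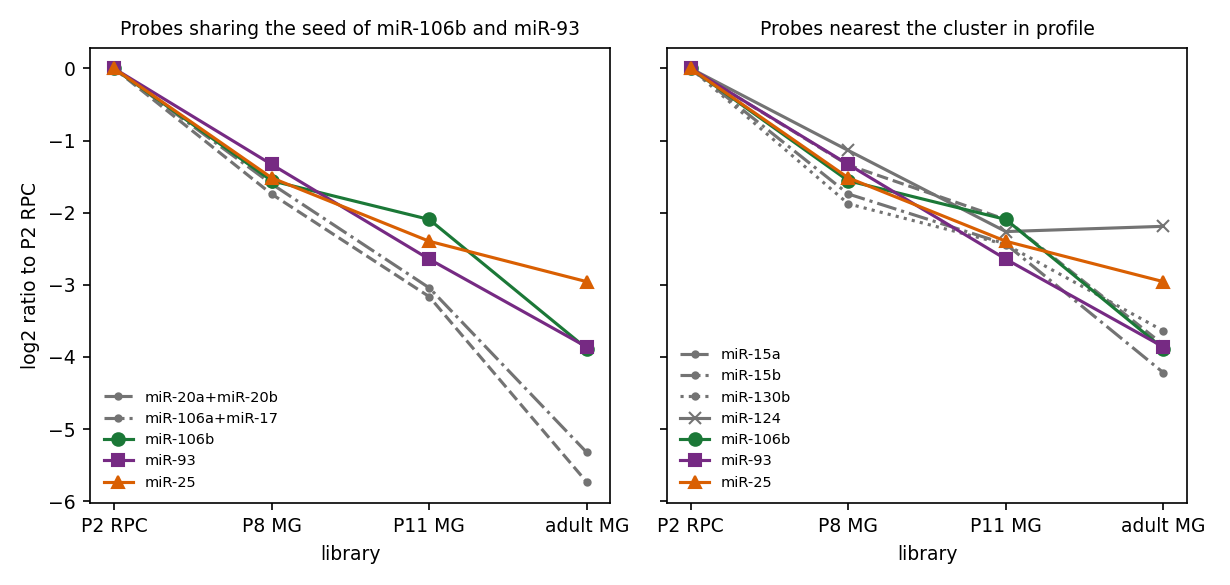
Log2 ratio to P2 RPC by library for the cluster members (coloured) beside the other probes with the AAAGUGC seed (left, grey) and the probes nearest to the members in profile (right, grey). Without background subtraction, the paralogous probes reach -5.74 and -5.32 in adult MG, below all 3 members, an order that turns for miR-106b when the threshold is subtracted, and miR-124 is flat after P11 MG, where miR-25 has the smallest decline of the cluster.

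miR-15a had a ratio to P2 RPC of -1.34 at P8, -2.09 at P11 and -3.83 in adult MG on the log2 scale, beside -1.56, -2.09 and -3.88 for miR-106b. miR-15a and miR-15b belong to the miR-15/16 family, which is known to restrain cell-cycle genes in several cell types. Of its 7 probes, 6 were above background in adult MG or P2 RPC, and 3 were called lower and 0 higher in adult MG against P2 RPC, where 16.5% of all 242 probes were lower and 20.7% higher. miR-322, from the same family, went another way, with 254 raw counts at P2 (RPC), 591 at P8, 700 at P11 and 125 in adult MG.

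Members of other neighbouring-gene clusters also differed among themselves. In adult MG against P2 RPC, the log2 ratios within the miR-106b/25 cluster spanned 0.93, beside 1.11 for miR-183 and miR-96 and 1.22 for the miR-17/92 cluster. In adult MG against P11 MG the spans were 1.23 for the miR-106b/25 cluster, 0.52 for miR-183 and miR-96 and 1.13 for the miR-17/92 cluster. Ordered from the narrowest span, the miR-106b/25 cluster was number 10 of 12 measured clusters there, and also in P11 MG against P8 MG. In adult MG against P2 RPC it was number 3 of 13. The clusters differed in their number of measured members, so their spans are not strictly alike. Several miRNAs of the miR-17/92 cluster share a probe with a copy at another locus, so its span is not that of a single transcript.

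The promoter of the host gene is shown because the 3 members lie within that gene. Its part in their decline was not tested. The RefSeq window of 250 bases before to 50 after the Mcm7 start lies at chr5:138171834-138172133 on the minus strand of GRCm38.p6. It is printed with the match to the searched E2F-type motifs in capitals.
Mcm7 promoter: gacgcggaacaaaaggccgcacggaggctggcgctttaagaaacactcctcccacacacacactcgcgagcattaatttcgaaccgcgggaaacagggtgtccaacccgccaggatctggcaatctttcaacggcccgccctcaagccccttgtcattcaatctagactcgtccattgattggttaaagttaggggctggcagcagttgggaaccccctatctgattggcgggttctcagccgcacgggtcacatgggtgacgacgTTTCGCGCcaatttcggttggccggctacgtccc
The motifs searched were TTTCGCGC and TTTGGCGC on both strands, with overlaps allowed. Other forms of the E2F site were not searched, so any in these windows are neither marked nor counted. This window held 1 match, starting at base 267, which is among the 50 bases after the annotated start. The window of another annotated Mcm7 start held 0. Of 32851 promoter windows of the same length, 267 (0.813%) held a match. Mcm7 mRNA was not analysed here, and binding at this promoter was not measured.

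The summed markers of photoreceptors and neurons were lower in the glia than in P2 RPC, as the cluster was, whereas those of microglia and white blood cells were higher. The 3 photoreceptor markers (miR-183, miR-96 and miR-182) summed to 20273 normalized counts at P2 (RPC), 5573 at P8, 1373 at P11 and 779 in adult MG, with 3, 3, 2 and 2 of them above background. The 4 neuronal markers summed to 6898, 3133, 1528 and 1552, mostly from miR-124. The 6 miRNAs abundant in Müller glia were above background in all 4 libraries and took 20.7% of miRNA counts at P2 (RPC), 41.8% at P8, 49.7% at P11 and 63.4% in adult MG. Among them miR-9 was the strongest at P2 (RPC), with 63981 raw counts. In adult MG against P2 RPC miR-9 was not called (log2 ratio 0.38), whereas the others were called higher. Of the 6 microglia and white blood cell markers, 1 was above background in P2 RPC and 4 in each glial library, and their summed normalized counts were 296 at P2 (RPC), 1132 at P8, 1312 at P11 and 683 in adult MG. The 3 red blood cell markers were above background in no library, and miR-126-3p, the endothelial marker above it in all 4, had 340, 462, 360 and 208 raw counts. Of the 4 mural markers, 1 was above background in P2 RPC and 0 in the glia. The part of other cell types in the cluster's decline was not tested, and in pooled cells fewer positive cells and less RNA per cell cannot be told apart. Cre line, cell type, age, number of retinas and lane differ together between P2 RPC and the glia, and their parts cannot be told apart.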

How the data were processed

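Per the labels, RNA from each sorted pool was tagged by miRNA-specific ligation and counted on a nanoString nCounter panel. The authors deposited raw whole-number counts for each probe, and per the file headers no processing step is recorded. The authors also deposited a processed table, read here as a score. How it was made is not given in the sources used. Set against the raw counts, a score equals the count minus a background 3 SD above the negative-control mean, times 1 factor per lane, with lower values set to 1. That gave 99.8% to 100% of miRNA probes within 1 unit.

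Raw counts were scaled first on the positive controls and next on the 100 miRNA probes with the highest counts (geometric means), with lane factors between 0.904 and 1.15. Counts at or below background were set to it for ratios. Intervals are exact conditional binomial for ratios, exact conditional odds ratios for changes of ratios, exact Poisson for counts and Clopper-Pearson for shares. With 1 library per group, no edgeR test was possible, and edgeR 4.0.16 supplied TMM factors only. The control spread left out the weakest positive control. Other scalings, backgrounds, fold thresholds and the score table were tried. Subtracting that background, or the threshold, from raw counts, and the background settings for paralogous probes, were added after seeing the data. Named miRNAs were the members, the listed families and markers, and the 5 nearest profiles per member. The steps were tested on simulated counts. Members and lists were chosen with earlier results of these data known. Python 3.11.15 and scipy 1.17.1 were used.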

Additional observations from a re-analysis of the deposited data

How the results depend on the processing

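All 252 log2 ratios of the 3 members under 14 other settings stayed below 0, and 236 kept their call. The settings that changed only the fold threshold or the background threshold left the ratios as they were, so they could change calls only. On other scalings, miR-25 in P11 MG against P8 MG passed the 2-fold threshold with positive controls (-1.08), ligation controls (-1.15) or total counts (-1.15). That made 2 members lower there. miR-25 in adult MG against P11 MG passed it on total counts (-1.17). miR-93 in adult MG against P11 MG missed it on positive controls (-0.97), housekeeping mRNAs (-0.75) and ligation controls (-0.73), leaving 1 member lower. miR-25 in adult MG against P8 MG missed it on housekeeping mRNAs (-0.84) and in the authors' deposited table (-0.99). A 1.5-fold threshold added miR-25 in P11 MG against P8 MG (-0.88), giving 2 members. A 3-fold threshold lost, in P8 MG against P2 RPC, miR-106b (-1.56), miR-93 (-1.33) and miR-25 (-1.52), leaving 0 members, miR-93 in P11 MG against P8 MG (-1.31), leaving 0, miR-25 in adult MG against P8 MG (-1.44) and miR-93 in adult MG against P11 MG (-1.22), leaving 1.

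Background treatment moved the ratios between members, as its construction implies for weak counts. With the negative-control mean subtracted, the log2 change of miR-25 over miR-106b was 0.19 in P8 MG and -0.11 in P11 MG against P2 RPC, then 1.68, 1.49 and 1.80 for adult MG over P2 RPC, P8 MG and P11 MG, and that of miR-25 over miR-93 was 0.49 for P11 MG over P2 RPC, then 1.45 and 1.55 for adult MG over P2 RPC and P8 MG. In the authors' deposited table, miR-25 over miR-106b changed by 0.47 in P8 MG and, with the sign turned, 0.33 in P11 MG against P2 RPC, then by 6.72, 6.25 and 6.39 for adult MG over P2 RPC, P8 MG and P11 MG. There, miR-25 over miR-93 changed by 0.071 in P8 MG against P2 RPC, with the sign turned, 1.07 in P11 MG against P2 RPC, 0.999 in P11 MG against P8 MG, and 2.96, 2.89 and 1.89 in adult MG against P2 RPC, P8 MG and P11 MG. miR-93 over miR-106b changed there by -1.14 in P11 MG against P8 MG and by 3.76, 3.36 and 4.50 in adult MG against P2 RPC, P8 MG and P11 MG. The range within the cluster was 1.68 in adult MG against P2 RPC after subtraction, and by the authors' values 0.47 in P8 MG and 1.07 in P11 MG against P2 RPC, and 6.72, 6.25 and 6.39 in the same adult comparisons. The adult values of that table rest on a remainder of 2 for miR-106b. Relative to the paralogous probes, the following changes turned sign with the background threshold subtracted, a setting chosen after seeing the data. Against P2 RPC, miR-106b to the miR-20 probe came to -0.14 at P8 and -0.024 in the adult, and to the miR-17 probe -0.37 in the adult. miR-93 in P11 MG against P2 RPC was -0.045 to the miR-20 probe and -0.14 to the miR-17 probe. By the authors' deposited values the same 5 changes were -0.24, -3.53, -3.85, -0.26 and -0.34, and miR-93 to the miR-17 probe in adult MG was -0.096.

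The cluster's share was 5.20%, 5.15% and 5.33% in P2 RPC with subtraction, with probes above background as the total and without miR-204, and 1.86%, 1.89% and 2.02% in P8 MG. In P11 MG it was 0.830% over probes above background and 1.002% without miR-204, and in adult MG 0.510% without miR-204. The nearest profile became miR-15b for miR-106b (0.24) and miR-93 (0.33) and miR-124 for miR-25 (0.49) after subtraction. In the authors' deposited table it became miR-1196 for miR-106b (1.37), the miR-17 and miR-106a probe for miR-93 (0.21) and miR-124 for miR-25 (0.47). By the largest absolute difference it was miR-15b for miR-93 (0.41). Of 390 counts for the other families, 360 stayed within 1.5 times and 30 did not. No paired analysis was possible because each group held 1 library and the labels carry no replicate numbers. Closeness to background limits miR-106b and miR-93 in adult MG, at 1.26 and 1.59 times the background threshold, and miR-25 in no library.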
